A study of Mus musculus with 6 samples.

Results

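Serotonin receptors are the proteins through which cells sense serotonin. They were examined here through the messenger RNA on ribosomes of cells that use S100a10 in the cerebral cortex of mice. The 10 receptor genes Htr1a, Htr1b, Htr1d, Htr1f, Htr2c, Htr3a, Htr4, Htr5a, Htr5b and Htr7 were taken by name, and every probe set (a group of short array probes read as 1 value) that the platform annotation gave to 1 of them alone was kept. This gave 19 of the 45037 probe sets that were not array controls. Htr1d had 3 probe sets, Htr3a and Htr5b had 1 each, and the other 7 genes had 2 each. The choice did not use measured values, but the receptors were proposed with earlier results of these arrays known.

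The samples came from bacTRAP mice of line ES691, in which the control region of S100a10 drives a tagged ribosomal protein, so that ribosomes and their RNA can be pulled out of the cells that use it. S100a10 encodes p11, known to bind the receptors made from Htr1b and Htr4. The mice had been moved from FVB onto C57BL/6 over 3 to 5 generations. The fluoxetine group (3 arrays) drank fluoxetine, an inhibitor of serotonin reuptake, at 0.167 mg/ml with 1% saccharine, and the vehicle group (3 arrays) drank 1% saccharine alone, both over 15 to 18 days. Age, sex and the number of animals behind each sample are not given in the sources used here. The labels call the 3 samples of a group biological replicates, and p-values measure the spread between those samples.

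Most serotonin receptors are G protein-coupled. Those of the 5-HT1 and 5-HT5 families couple to Gi and Go proteins and lower cyclic AMP, the 5-HT2 family couples to Gq and phospholipase C, and the 5-HT4 and 5-HT7 receptors couple to Gs and raise cyclic AMP. The 5-HT3 receptor is the exception, a cation channel opened by serotonin. In the cortex the 5-HT1A receptor is known on pyramidal cells and some interneurons, while 5-HT3A marks a class of interneurons. The 5-HT2C receptor is known for very high expression in the choroid plexus, the tissue that makes cerebrospinal fluid.

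The arrays' median intensities lay between 47.3 and 48.6. Brighter probe sets (geometric mean of at least 50) were also compared, by their median deviation from the mean of all arrays in log2. For the fluoxetine arrays it was 0.011, −0.058 and −0.017, and for the vehicle arrays −0.007, 0.086 and 0.006. All 11 deep layer pyramidal markers with a probe set were above background on every array (Etv1 had no probe set), but so were 9 of 10 interneuron markers, 11 of 12 astrocyte markers and 5 of 7 oligodendrocyte markers. The submitters state that the line labels some non-neuronal cells. In such samples fewer cells of a type and less RNA per cell cannot be told apart.

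The receptors fell into a bright and a dim set. Background was gauged from 42 probe sets of 28 genes of other organs (Alb of the liver and Prm2 of sperm, for example), whose median intensity was 12 to 13 by array and whose 95th percentile was 65.7 to 83.7. Of the 19 receptor probe sets, 7 lay above that percentile on all 6 arrays, 10 lay at or under it on all 6, and 2 lay above it on some. Over all probe sets, 42.4% were above it on all arrays. Probe sets bind with unequal strength, so an intensity shows whether a signal stood above background and does not rank the receptors by number of transcripts.

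Htr2c, the 5-HT2C receptor gene, gave the brightest receptor signal with probe set 1435513_at. The fluoxetine arrays read 2570, 1580 and 1940 and the vehicle arrays 2050, 2440 and 2210 in linear intensity. The vehicle values lay inside the range of the fluoxetine values. Over all 6 arrays the probe set stood at the 86.4th to 89.7th percentile of its array. The other Htr2c probe set, 1450477_at, built on a RefSeq transcript, read only 9.53 to 18.1, inside the background range.

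Htr1b, which encodes an inhibitory autoreceptor and heteroreceptor, had both probe sets past an intensity of 50. With 1442077_at the fluoxetine arrays read 517, 516 and 386 and the vehicle arrays 488, 477 and 474. Fluoxetine 3 was the lowest and the other two fluoxetine arrays the highest. With 1422288_at they read 78.2, 79.3 and 79.8 against 75.9, 67.6 and 95.7, above background on 3 of 6 arrays.

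Htr7, of the Gs-coupled 5-HT7 receptor, read 288, 310 and 434 with fluoxetine and 346, 316 and 408 with vehicle (1435332_at). Htr5a, whose receptor couples to Gi, read 356, 259 and 265 against 287, 276 and 310 (1443276_at). Htr1a, the gene of the 5-HT1A receptor, read 241, 205 and 203 against 254, 221 and 244 (1438710_at). In each of these 3 genes the groups overlapped and the second probe set was at the bottom of the scale. It read 4.95 to 5.20 for Htr7 (1422235_at), 3.68 to 3.83 for Htr5a (1422207_at) and 6.98 to 7.20 for Htr1a (1450219_at).

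Htr1f, the gene of the 5-HT1F receptor, had the widest spread among the bright probe sets. With 1450548_at the fluoxetine arrays read 176, 147 and 209 and the vehicle arrays 116, 230 and 172, a range of 0.99 in log2 over the 6 arrays. The lowest and the highest value were both vehicle arrays. Its second probe set, 1440422_at, read 37.0, 25.2 and 52.2 against 59.1, 63.7 and 17.8, so vehicle 1 was the lowest array with the first probe set and among the highest with the second.

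Htr3a, the subunit of the serotonin-gated channel, read 93.0, 89.0 and 102 with fluoxetine and 102, 112 and 113 with vehicle. It was above background on all 6 arrays but close to it, at the 56.3rd to 58.7th percentile. Fluoxetine 3 and vehicle 1 were nearly equal, and the remaining vehicle arrays lay above every fluoxetine array.

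The genes Htr1d, Htr4 and Htr5b had no probe set with a geometric mean of 50 or more over the 6 arrays. Htr1d, a close relative of Htr1b, read 21.0 to 31.6 (1440741_at), 19.3 to 30.0 (1440166_x_at) and 10.7 to 11 (1422290_at). Htr5b read 26.2 to 63.6, and the second Htr4 probe set, 1427654_a_at, 24.7 to 29.4. All of these lay at or under the background level on every array, so none stood above background by that measure. Except for 1422290_at, they read above the background median of 12 to 13, so this measure cannot show that signal was absent. The receptor genes outside the list, Htr2b, Htr3b and Htr6, were at the bottom of the scale too, with a mean log2 intensity of 2.13 to 2.28 by array, and no probe set was assigned solely to Htr2a.

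**Figure D1:**
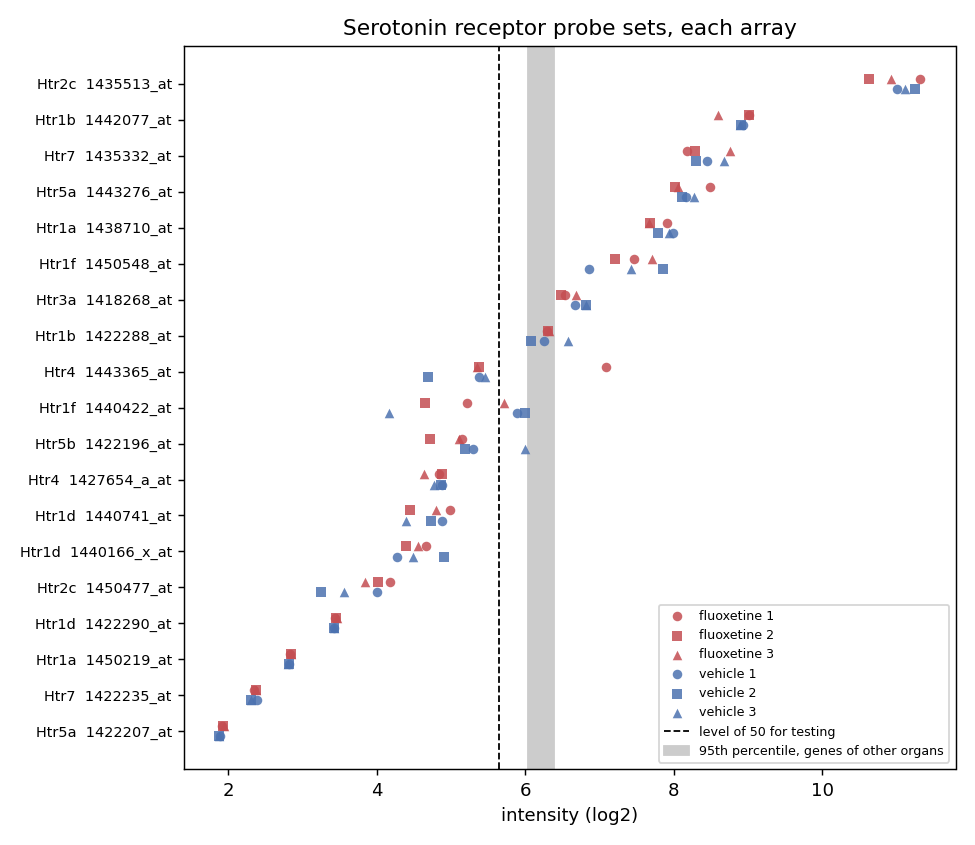
Intensity (log2) of the 19 receptor probe sets on each of the 6 arrays, ordered by mean, with fluoxetine arrays in red and vehicle arrays in blue (symbols give the replicate). The dashed line is the level of 50 used for testing and the grey band the range over arrays of the 95th percentile of genes of other organs. The brightest 7 probe sets lie above the band on every array.

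Fluoxetine against vehicle asks whether prolonged reuptake inhibition changed the ribosome-bound RNA of these receptors. Probe sets with a geometric mean of at least 50 were tested, which kept 8 receptor probe sets of 7 genes. None of the 8 was called by limma (adjusted p under 0.05 by Benjamini-Hochberg), and over all 22326 probe sets tested the share called was 0.0%. Before adjustment 0 of the 8 fell under 0.05, beside 2.52% of all tested. The smallest limma p among the 8 was 0.12 before and 0.999 after adjustment.

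Of the 8 receptor probe sets 3 were higher (2 of them by 0.00 after rounding) and 5 lower, with a median difference of −0.05 in log2. All probe sets tested had a median of −0.06, with 66.3% lower. When every array was shifted to a common median of the tested probe sets, 4 receptor probe sets were higher and 4 lower, and 49.2% of all were lower. The groups overlapped for each of the 8, where 2.83% of all tested did not overlap and were higher and 5.23% did not overlap and were lower.

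Htr3a had the largest difference of the 8, at −0.20 ± 0.11 in log2 (SE), a fold of 0.870 with a 95% interval of 0.722 to 1.05. Its log2 means were 6.56 ± 0.10 with fluoxetine and 6.77 ± 0.09 with vehicle (SD, n = 3 each; limma adjusted p = 0.999). After quantile normalization the Htr3a groups no longer overlapped, fluoxetine being lower, as for 2.5% of all probe sets tested, and the difference was −0.19. The shift to a common median of the tested probe sets gave −0.14. Without the filter the unadjusted limma p of Htr3a was 0.0445 and the adjusted p 0.742. It was the only one of the 19 receptor probe sets under 0.05 in that fit, where 5.84% of all probe sets were, and 0.0% passed after adjustment.

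Markers of the Htr3a class of interneurons were read beside it. Of 12 with a probe set 10 were tested, 3 higher and 7 lower (median −0.08), and 0 were called. Their array means were 8.82, 8.90 and 8.85 with fluoxetine and 8.96, 8.97 and 8.94 with vehicle in log2. The gap between the groups rested on the scaling: after the shift to a common median of the tested probe sets the array means were 8.82, 8.99 and 8.86 against 8.96, 8.84 and 8.97, which overlap. The list median was −0.02 after that shift and −0.02 after quantile normalization. Vip, a neuropeptide of these cells, read 9.63, 9.71 and 9.74 against 10.10, 10.09 and 10.06, a difference of −0.39 ± 0.10 (SE; limma adjusted p = 0.999). Crh, another peptide precursor, differed by −0.34 ± 0.15, while Cxcl14, a chemokine, differed by 0.42 ± 0.21. The summed intensity of the list was 26696 to 32867 with fluoxetine and 27778 to 28249 with vehicle, and the part of these cells in the Htr3a values was not tested.

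Htr2c differed by −0.16 ± 0.19 in log2 (SE), a fold of 0.894 with a 95% interval of 0.658 to 1.22. Its log2 means were 10.96 ± 0.35 with fluoxetine and 11.12 ± 0.12 with vehicle (SD, n = 3 each). Fluoxetine 2 set the sign: without it the difference was 0.0032. With all 6 arrays the difference was −0.08 after quantile normalization and −0.10 after the shift to a common median of the tested probe sets. Among choroid plexus markers, 7 of the 10 with a probe set were under the level of 50, among them the defining genes Folr1, Kcne2 and Otx2. The 2 above background on all 6 arrays were Clic6 and Kl, at 113 to 160 and 113 to 140 in linear intensity. Ttr, the transthyretin gene, reached the highest value of the 10 and read 7.93, 9.64 and 6.12 with fluoxetine and 6.36, 6.58 and 7.33 with vehicle in log2. It was highest on fluoxetine 2, the array on which Htr2c was lowest. Aqp1, a water channel of this epithelium, was instead highest on fluoxetine 1, where Htr2c was highest too, at 7.94 in log2 against 3.73 to 5.61 on the others. The mean of the 10 genes was also highest there (5.30, 5.15 and 4.90 with fluoxetine, 4.66, 4.70 and 4.93 with vehicle). That rank rested on Aqp1. Without it the means of the other 9 were 5.01, 5.25 and 4.83 against 4.74, 4.81 and 4.95, highest on fluoxetine 2. Without Ttr they were 5.01, 4.65 and 4.77 against 4.47, 4.49 and 4.66. The summed intensity of the 10 choroid plexus genes was 466 to 1213 with fluoxetine and 437 to 584 with vehicle, and the part of these cells in the Htr2c values was not tested.

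Htr1a differed by −0.15 ± 0.12 (log2, SE), a fold of 0.902 with a 95% interval of 0.737 to 1.10. It stayed lower with each array left out in turn, at −0.23 to −0.11, as did Htr3a at −0.26 to −0.16. The Htr1a difference was −0.11 after quantile normalization and −0.09 after the shift to a common median of the tested probe sets. Htr7 differed by −0.07 ± 0.19, with an interval of the fold from 0.704 to 1.29. The sign of Htr7 rested on single arrays: the difference was 0.05 without fluoxetine 1 and 0.03 without vehicle 3.

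The 2 probe sets of Htr1b differed by −0.03 ± 0.14 (1442077_at) and 0.00 ± 0.15 (1422288_at) in log2 (SE). Their intervals of the fold were 0.773 to 1.24 and 0.787 to 1.28. Htr5a differed by 0.00 ± 0.15, with a fold between 0.780 and 1.28, and Htr1f by 0.08 ± 0.26, with a fold between 0.691 and 1.62. Changes within these bounds cannot be told from none with 3 arrays a side, and the bounds of Htr1f were the widest.

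**Figure D2:**
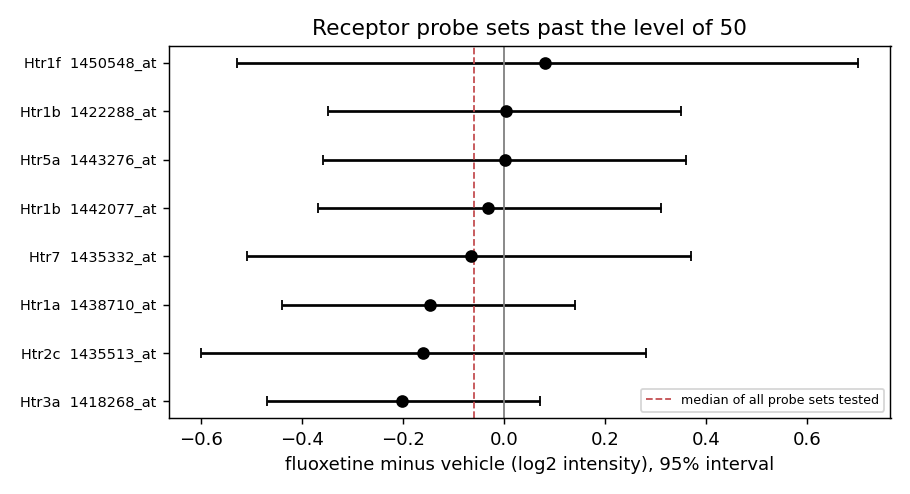
Fluoxetine minus vehicle (log2 intensity) for the 8 receptor probe sets past the level of 50, as points with 95% limma intervals (3 arrays a group). Every interval includes 0, and the dashed line marks the median of all probe sets tested, −0.06.

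The 11 dim receptor probe sets were not part of the main test and are given by array. Their groups did not overlap in 4 cases. Fluoxetine was higher for Htr5a (3.76, 3.81 and 3.83 against 3.70, 3.68 and 3.69 with 1422207_at), for Htr1a (7.09, 7.20 and 7.20 against 7.03, 7.03 and 6.98 with 1450219_at) and for Htr1d (10.9, 10.9 and 11 against 10.7 on all 3 vehicle arrays with 1422290_at). These differences were only 0.02 to 0.04 in log2. Each had a two-sided p of 0.1 by exact permutation, the lowest that 3 arrays a side can reach.

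Such a separation was common among dim probe sets: of the 22711 under the level of 50, 36.4% had non-overlapping groups with fluoxetine higher, and 0.964% with fluoxetine lower. Over them the median deviation from the mean of the 6 arrays in log2 was −0.003, 0.021 and 0.036 for fluoxetine and −0.027, −0.051 and −0.032 for vehicle. After quantile normalization the shares were 10.7% and 7.84%. There the groups of Htr1a 1450219_at and Htr1d 1422290_at were again apart, but with fluoxetine lower, by 0.03 and 0.04 in log2. The Htr5a groups overlapped there.

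Htr5b, a receptor gene related to Htr5a, was the 1 dim probe set whose groups did not overlap with fluoxetine lower. It read 35.6, 26.2 and 34.2 with fluoxetine and 39.5, 36.3 and 63.6 with vehicle, a difference of −0.51 in log2 (exact two-sided permutation p = 0.1). Fluoxetine 1 and vehicle 2 lay close together, and vehicle 3 stood above the rest. Without vehicle 3 the difference was −0.26. The groups stayed apart after quantile normalization, and all 6 values were at or under the background level.

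**Figure D3:**
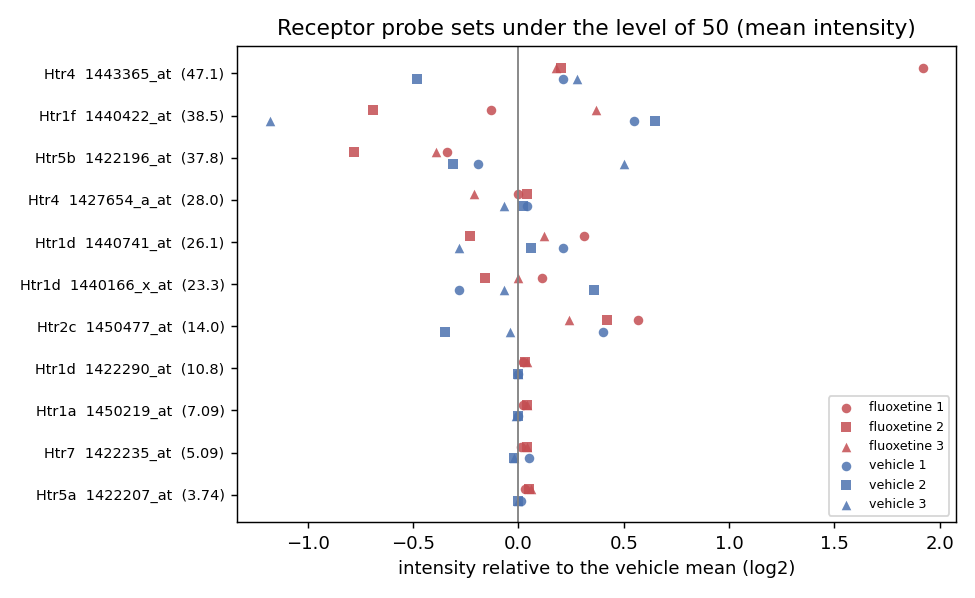
Intensity relative to the vehicle mean (log2) of the 11 receptor probe sets under the level of 50, by array, with the geometric mean intensity in brackets. The dimmest 4 sit within 0.07 of the vehicle mean, and Htr4 on fluoxetine 1 stands apart.

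Htr4, the gene of a Gs-coupled receptor that p11 is known to bind, was above background on 1 array. With 1443365_at it read 136, 41.4 and 40.9 with fluoxetine and 41.6, 25.8 and 43.7 with vehicle. Fluoxetine 1 alone was high, and the difference of 0.77 in log2 (exact two-sided permutation p = 0.6) was 0.19 without that array. The second Htr4 probe set did not show it: it read 28.6 on fluoxetine 1 and 24.7 to 29.4 on the others.

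Markers of other cells were also high on fluoxetine 1. Of 12 astrocyte markers 7 were highest there, with array means of 11.70, 10.57 and 11.22 with fluoxetine and 10.64 to 10.80 with vehicle in log2. Gfap, the intermediate filament gene of astrocytes, had the widest spread, with 12.13, 4.49 and 9.02 in the fluoxetine group against 4.70, 5.24 and 5.67. Without Gfap the list means were 11.66, 11.12 and 11.42 against 11.18 to 11.30. Sox9, the list gene with the smallest p, was higher on all 3 fluoxetine arrays. It read 8.89, 8.74 and 8.68 against 8.17, 8.16 and 8.23, a difference of 0.58 ± 0.11 (SE, limma adjusted p = 0.999). The abundant astrocyte genes Slc1a2, Slc1a3, Gja1 and Gjb6 did not exceed their highest vehicle value on fluoxetine 1. Of 6 striatal projection neuron markers 3 were highest there, and their summed intensity was 5165 on fluoxetine 1, 2068 and 2554 on the other fluoxetine arrays and 1899 to 2269 with vehicle. Penk, the enkephalin precursor, read 11.50 there and 9.23 to 9.86 elsewhere in log2. Leaving Penk out, the striatal list means were 7.67, 7.25 and 7.65 with fluoxetine against 7.48, 7.30 and 7.58 with vehicle, so fluoxetine 1 and 3 were nearly equal. The sum of the 5 remaining genes still peaked on fluoxetine 1, at 2275 (1213 to 1624 elsewhere). Rgs9 went the other way, with 6.64 on fluoxetine 1, under its vehicle values of 6.95, 6.87 and 6.79. Drd2, a defining striatal gene, read 4.39 there, inside its range of 4.12 to 5.24 on the other arrays. Of 9 hippocampal markers 4 were highest on fluoxetine 1, though 6 of the 9 were under the level of 50, and the list means were 6.25, 6.10 and 6.11 against 5.93, 5.84 and 6.27. Among them Wfs1, the wolframin gene, read 12.30 there and 10.21 to 11.01 elsewhere, whereas Lefty1 was lowest there at 9.18 (9.80 to 10.06 elsewhere). Without Wfs1 the summed intensity of the list was 939 on fluoxetine 1, below the other arrays (1143 to 1419). Deep layer pyramidal markers had means of 10.13, 10.30 and 10.16 with fluoxetine and 10.09 to 10.21 with vehicle. Of these 11 markers, however, 7 were lowest on fluoxetine 1 and only 1 was highest there. That 1 was Sulf1, at 10.58 against 8.86 to 9.67 on the other arrays. The 7 nuclear and non-coding transcripts kept as a sign of RNA quality had means of 6.57, 7.10 and 7.11 with fluoxetine and 7.28, 7.22 and 6.67 with vehicle. Among these Malat1 was lowest on fluoxetine 1 and vehicle 3, at 115 and 127 in linear intensity against 461 to 924 on the others. The part of other cells or of RNA quality in the Htr4 value was not tested.

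**Figure D4:**
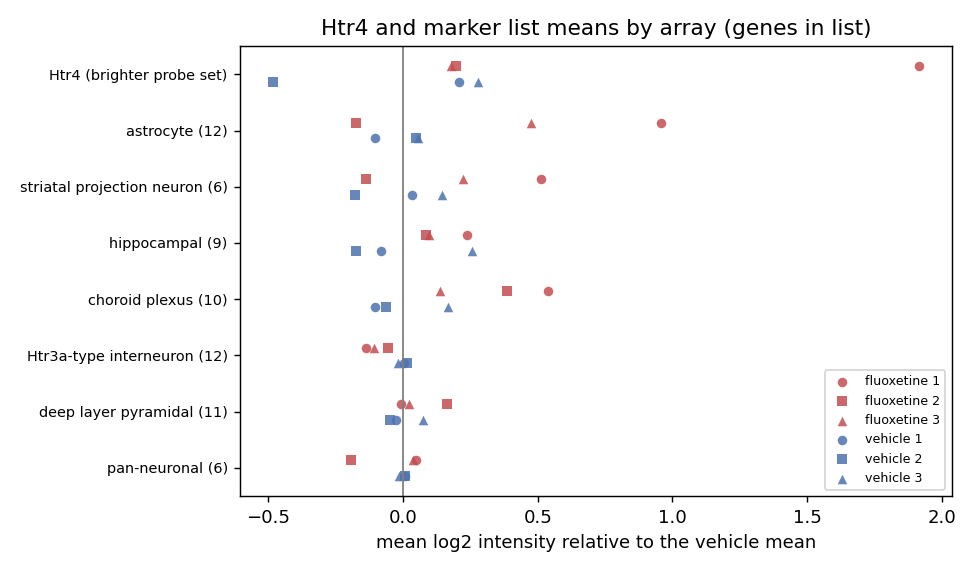
Htr4 (its brighter probe set, 1443365_at) and the mean log2 intensity of marker lists on each array, relative to the vehicle mean, with the number of genes of each list in brackets. Fluoxetine 1 (red circle) is the highest array for Htr4 and for the astrocyte, striatal and choroid plexus lists. Without Aqp1 the choroid plexus mean was highest on fluoxetine 2. Without Penk the striatal mean was 7.67 on fluoxetine 1 and 7.65 on fluoxetine 3. The values are unshifted; the groups overlap for the Htr3a-type interneurons once arrays share a common median of the tested probe sets.

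The genes that make, remove and relay serotonin were set beside the receptors by lists, of which no member was called (limma adjusted p of 0.999 for each tested gene named). Of the p11 list 2 genes were higher and 3 lower (median −0.05). S100a10 itself differed by −0.07 ± 0.11 (log2, SE), and Anxa2, the annexin partner of p11, by −0.06 ± 0.14. Ppp1r1b, which encodes the phosphatase regulator DARPP-32, differed by 0.51 ± 0.30, its fluoxetine values being 10.52, 9.26 and 9.72 against 9.41, 9.20 and 9.36, so it too was highest on fluoxetine 1. Of the serotonin handling genes 4 of 8 were tested, 2 higher and 2 lower, and the serotonin neuron genes Tph2, Slc6a4 and Slc18a2 were under the level of 50. Slc29a4, a low-affinity monoamine transporter, differed by 0.51 ± 0.33 and was highest on fluoxetine 1 (9.59 against 8.22 to 9.13 on the others).

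Of the Gi and Go list, which serves the 5-HT1 and 5-HT5 receptors, 2 genes were higher and 7 lower (median −0.10). Kcnj9, a subunit of the potassium channels these receptors open, read 10.87, 10.95 and 10.50 with fluoxetine and 11.29, 11.35 and 11.49 with vehicle, a difference of −0.60 ± 0.15 (SE) with an unadjusted limma p of 0.00485. Kcnj3, another such subunit, differed by −0.28 ± 0.19, and Gng2, a G protein gamma subunit, by −0.21 ± 0.12. Of the Gq list, which serves Htr2c, 2 were higher and 9 lower (median −0.10). Plcb2, a phospholipase C, differed by 0.23 ± 0.12, and Itpr2 and Itpr3, calcium release channels, by −0.17 ± 0.14 and −0.14 ± 0.12.

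Of the Gs list, which serves Htr4 and Htr7, 4 were higher and 13 lower, with a median of −0.06, the same as that of all probe sets tested. Adcy8, an adenylyl cyclase, read 9.40, 9.54 and 9.90 against 10.14, 10.04 and 10.08, a difference of −0.47 ± 0.15 (SE). Its unadjusted p in limma's fit over all probe sets was 0.0162. Adcy2 differed by −0.22 ± 0.15 and Prkar2b, a regulatory subunit of protein kinase A, by −0.15 ± 0.11. Among genes that edit, fold or switch off receptors 6 were higher and 9 lower (median −0.01). Adar, an RNA-editing enzyme that can edit the Htr2c transcript, differed by 0.21 ± 0.12, Grk3, a receptor kinase, by −0.41 ± 0.25 and Rgs7, which speeds the turning off of Gi and Go, by −0.22 ± 0.14. After the shift to a common median of the tested probe sets the medians were −0.04 (Gi and Go), −0.04 (Gq), 0.00 (Gs) and 0.05 (receptor handling).

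**Figure D5:**
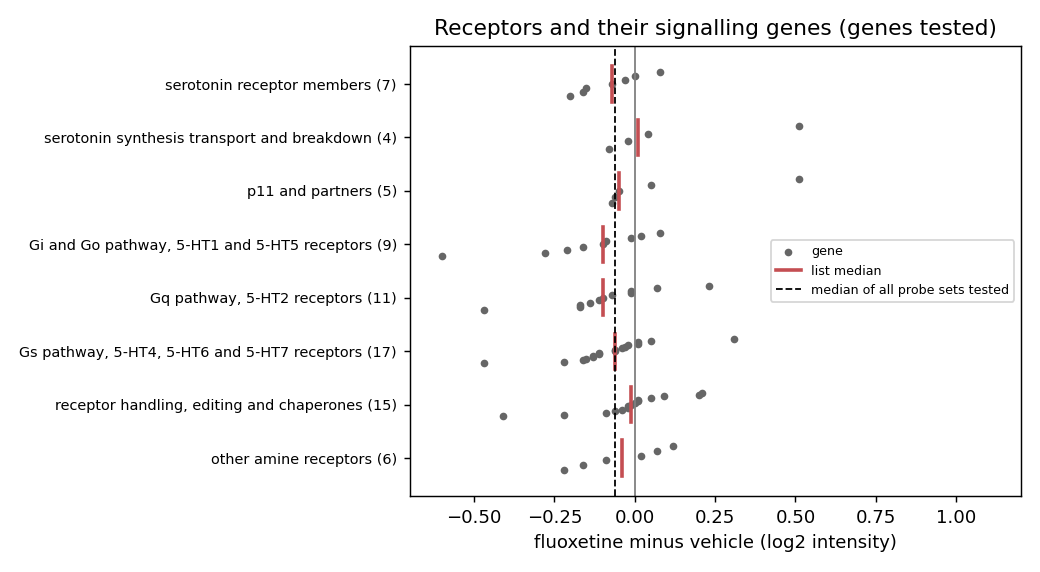
Fluoxetine minus vehicle (log2 intensity) of each tested gene (grey points, by its brightest probe set), with list medians in red and the number of genes in brackets. The receptors span −0.20 to 0.08, and the dashed line is the median of all probe sets tested.

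Of the 14 adrenergic, dopamine, histamine, muscarinic and trace amine receptor genes with a probe set, 6 were tested (7 of the 10 serotonin receptors were), 3 higher and 3 lower, and 0 were called. Hrh1, the histamine H1 receptor gene, differed by −0.22 ± 0.13, Chrm1, a muscarinic receptor, by −0.16 ± 0.15 and Hrh2 by −0.09 ± 0.11 (log2, SE). Drd4, a dopamine receptor gene below the level and named here after its values were seen, resembled Htr4 in that fluoxetine 1 alone was high, at 6.69 against 3.47 to 3.60 on the other 5 arrays.

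For the receptors with the widest range past the level of 50, Htr1f and Htr2c, the genes with the most similar profile over the 6 arrays were found among 12247 others, by the root mean square difference of mean-centred log2 values. For Htr2c these were Uckl1 (0.033), Zdhhc23 (0.0398) and Dap3 (0.0405), each highest on fluoxetine 1 and lowest on fluoxetine 2 as Htr2c was. For Htr1f they were Rtn4 (0.103), Slx4ip (0.104) and Stimate (0.105), each lowest on vehicle 1 as Htr1f was. Slx4ip and Stimate were highest on vehicle 2 like Htr1f, but Rtn4 was highest on fluoxetine 3. Shared extremes follow from choosing genes by likeness. With 6 arrays and so many genes, close profiles are a description of these arrays alone.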

How the data were processed

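The authors' deposited table gives a linear intensity per probe set and array, made with GCRMA per the submitters' processing notes. No version of GCRMA is given there. This method models background from probe sequence and squeezes low intensities towards a floor. RNA (15 ng per sample) was amplified in 2 cycles, per the labels. Array controls (64 of 45101 probe sets) were left out. Gene names came from the platform annotation, and all 10 receptor symbols matched a RefSeq table by gene identifier.

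Values were taken to log2. Probe sets with a geometric mean of at least 50 over the 6 arrays were fitted with limma 3.58.1 in R 4.3.3 (lmFit, eBayes, two-sided, no block) and adjusted by Benjamini-Hochberg over all of them (threshold 0.05). Intervals are limma's, at 95%. The fit was tested on simulated data. Single values under that level were compared by exact permutation. The number of arrays limits precision, and no read depth applies.

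Members, lists and tests were chosen with earlier results of these data known. Genes named are the receptors and, per list, up to 3 by smallest p. Others (Drd2, Drd4, Rgs9, Aqp1, Malat1, the abundant astrocyte genes and genes named as under the level) were chosen after their values were seen. Each gene of a list was read by its brightest probe set.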

Additional observations from a re-analysis of the deposited data

How the results depend on the processing

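None of the 17 other settings of the limma fit called any probe set, receptors included (smallest adjusted p of a receptor 0.742; at an unadjusted p under 0.05, the main setting had 563 probe sets). The median receptor difference ranged from −0.14 to 0.01 in log2. With the replicate number as a replicate block the count called was 0 and the median −0.05. Deviations from the group means of same-numbered samples correlated at −0.253, −0.0275 and −0.502 over the tested probe sets, no sample correlated best with its own number, and the samples were not treated as paired. The shift to a common median of the tested probe sets was added after seeing the data. Signs of single differences, none of them called, turned as follows. Quantile normalization and the shift to a common median of the tested probe sets each gave 0.03 for Htr1b 1442077_at. The median shift gave −0.0034 for Htr1b 1422288_at and −0.01 for Htr5a. Averaging a receptor's probe sets gave −0.04 for Htr1f and 0.12 for Htr2c, each through its dim probe set. Without fluoxetine 1 and vehicle 2 together, Htr1b 1422288_at differed by −0.10 and Htr5a by −0.18. With 1 array left out, differences ranged from −0.11 to 0.14 (Htr1b 1422288_at), −0.10 to 0.11 (1442077_at), −0.18 to 0.32 (Htr1f), −0.34 to 0.0032 (Htr2c), −0.15 to 0.08 (Htr5a) and −0.25 to 0.05 (Htr7). The causes were not tested. Signal near background limits what Htr1d, Htr4 and Htr5b can show.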
